A study of Homo sapiens with 14 samples.

Results

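The zinc finger gene clusters of human chromosome 19 were described here as 166 accessible regions, of 65774 in the deposited count table and 1665 on the chromosome. They are the regions that start in 4 windows of the hg38 assembly: cluster 1 from 19.8 up to 24.2 Mb (39 regions), cluster 2 from 36.2 to 37.9 Mb (31 regions), cluster 3 from 52.0 to 53.7 Mb (29 regions) and cluster 4 from 57.0 to 58.6 Mb (67 regions). The other 1499 regions of the chromosome served as the reference. The rule uses position alone and no measured value. The assay was ATAC-seq. In it the Tn5 transposase inserts sequencing adapters into DNA that nucleosomes leave exposed, so that the count in a region rises with its openness. The cells were SUM149PT, an established line labelled as inflammatory breast cancer without oestrogen or progesterone receptor, and 6 clones of it called M1, M2, EM1, EM2, EM3 and E. The untreated line itself (Parental) and each clone gave 2 libraries, 14 in all. By its title the study concerns plasticity between epithelial and mesenchymal states (EMT). What the letters of the clone names stand for is not in the labels. Each group other than Parental is a single clone, so a difference belongs to that clone and not to a state.

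Most genes of these windows encode zinc finger proteins of the KRAB family. Their finger arrays bind DNA, often within transposable elements, and the KRAB domain recruits TRIM28 (also called KAP1). TRIM28 in turn brings the histone methyltransferase SETDB1 and HP1 proteins, and the bound chromatin is silenced. The families grew by repeated local duplication together with the elements they bind, so that neighbouring genes are close copies. ZNF91 and ZNF93 of cluster 1 are known for restraining SVA and L1 elements, and the promoters of several genes of cluster 4, among them ZNF671, ZNF154, ZNF135 and ZSCAN18, are known to be methylated in many carcinomas. TRIM28 itself lies at the distal end of cluster 4.

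Gene starts of the same cluster differed in clone M2, where some lost nearly all signal and others kept or gained it. The promoters of 6 starts of both kinds are printed here as RefSeq gives them on GRCh38.p14, from 250 bases before to 50 bases after the start and 5′ to 3′ on the strand of the gene. They were chosen after their values were seen. Capitals mark CCGGAAG or its reverse complement CTTCCGG, a form of the site that ETS-family factors bind, searched on both strands. Other forms of the site were not searched. ZNF671, ZNF256 and ZNF135 of cluster 4 and ZNF724 of cluster 1 lost nearly all signal in M2, while ZNF776 of cluster 4 rose and ZNF708 of cluster 1 stayed near its Parental level.
ZNF671, chr19:57727575-57727874, minus strand: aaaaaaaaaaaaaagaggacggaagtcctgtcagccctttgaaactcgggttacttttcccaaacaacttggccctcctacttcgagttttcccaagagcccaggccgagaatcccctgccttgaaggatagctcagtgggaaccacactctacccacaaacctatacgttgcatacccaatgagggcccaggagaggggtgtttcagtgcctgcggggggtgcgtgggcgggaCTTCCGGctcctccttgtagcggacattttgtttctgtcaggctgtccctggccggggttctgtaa
ZNF776, chr19:57746565-57746864, plus strand: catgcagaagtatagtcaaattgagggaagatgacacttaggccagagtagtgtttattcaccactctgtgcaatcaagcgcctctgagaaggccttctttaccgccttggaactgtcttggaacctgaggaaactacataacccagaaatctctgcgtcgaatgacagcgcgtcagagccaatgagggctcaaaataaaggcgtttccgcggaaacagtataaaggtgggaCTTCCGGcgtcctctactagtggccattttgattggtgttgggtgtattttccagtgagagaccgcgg
ZNF256, chr19:57947657-57947956, minus strand: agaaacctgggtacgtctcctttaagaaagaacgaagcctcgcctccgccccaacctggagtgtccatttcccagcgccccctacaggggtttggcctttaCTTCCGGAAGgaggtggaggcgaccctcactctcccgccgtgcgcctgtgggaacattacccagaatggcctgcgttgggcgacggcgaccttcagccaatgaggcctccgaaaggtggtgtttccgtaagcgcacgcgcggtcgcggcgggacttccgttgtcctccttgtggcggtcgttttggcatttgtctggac
ZNF135, chr19:58058989-58059288, plus strand: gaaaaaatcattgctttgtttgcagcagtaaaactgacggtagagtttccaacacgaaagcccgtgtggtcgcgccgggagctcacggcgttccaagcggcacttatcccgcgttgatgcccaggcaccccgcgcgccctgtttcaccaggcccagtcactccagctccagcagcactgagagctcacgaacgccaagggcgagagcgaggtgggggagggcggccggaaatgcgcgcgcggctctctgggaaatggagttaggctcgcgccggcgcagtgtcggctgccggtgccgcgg
ZNF724, chr19:23250345-23250644, minus strand: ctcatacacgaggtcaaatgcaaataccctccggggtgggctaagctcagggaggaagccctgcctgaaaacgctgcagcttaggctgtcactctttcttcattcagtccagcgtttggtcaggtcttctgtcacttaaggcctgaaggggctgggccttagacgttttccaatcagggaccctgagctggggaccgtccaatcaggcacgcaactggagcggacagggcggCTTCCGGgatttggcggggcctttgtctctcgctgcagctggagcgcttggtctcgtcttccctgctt
ZNF708, chr19:21329361-21329660, minus strand: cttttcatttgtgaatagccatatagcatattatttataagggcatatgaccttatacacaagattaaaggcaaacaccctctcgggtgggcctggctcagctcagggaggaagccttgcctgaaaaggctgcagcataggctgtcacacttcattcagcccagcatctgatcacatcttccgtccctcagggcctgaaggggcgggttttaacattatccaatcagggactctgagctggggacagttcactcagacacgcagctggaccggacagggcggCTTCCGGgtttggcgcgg

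The copies of this form in ZNF256 overlap to form a palindrome, and ZNF135 holds no exact copy. Over the 173 RefSeq promoters of zinc finger genes in the 4 clusters, 91 (52.6%) held an exact copy, compared with 20.5% of 122 zinc finger promoters elsewhere on chromosome 19, 27.9% of 402 on other chromosomes and 12.8% of 22199 coding promoters of the same length (those of chromosome 8 were not used here). By cluster the share was 78.6%, 25.0%, 60.5% and 57.4%. Among zinc finger starts with an accessible region, an exact copy was present in 58.3% of 12 promoters whose region fell in M2 to under 0.25 of its Parental level, in 55.2% of 58 whose region was higher in M2 and in 54.5% of 22 others. These shares lie close together. The number of CG dinucleotides per promoter had medians of 14, 25 and 19 in the same 3 sets, against 21 over all coding promoters and 10 over the 28 promoters of cluster 1. The printed promoters do not order that way, since ZNF135 holds 32 CG dinucleotides, ZNF256 26, ZNF724 14, ZNF776 13, ZNF671 11 and ZNF708 9. A match is a description of the sequence and not evidence of binding.

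Library totals ran from 8138944 counts in E replicate 1 to 16786823 counts in EM3 replicate 1. Pearson correlations of log2 values over all regions between the libraries of a group were 0.948 to 0.970, except for E at 0.873. E replicate 1 carried signal at some sites that had high signal in M2 and little in Parental, so results for E are given with and without it. Defining epithelial markers had a start region for 7 of 7 genes. Their summed level was 263 and 270 CPM (counts scaled to library size) in the Parental libraries, 87.2 and 73.0 CPM in M1, and 127 and 113 CPM in M2. The members went both ways in M2, where KRT8 and KRT18 rose by 1.40 and 0.55 and the other 5 fell, CDH1 by 6.28 and EPCAM by 5.97. Of the mesenchymal markers 4 of 5 had a region, summing to 68.5 and 75.1 CPM in Parental and to 141 and 156 CPM in M2. VIM and FN1 rose in M2 by 1.63 and 1.32, while ZEB1 (0.12) and TWIST1 (0.25) did not pass the test. No start region existed for the 4 endothelial markers, and 2 of 4 blood markers (CD3E and SPI1) had 1. The origin of the replicates is unstated, so p-values measure only how far these libraries vary and that may be technical. ATAC-seq counts alone cannot tell a closed site from lost DNA or from a site open in fewer cells.

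The clusters differed in how much accessible chromatin they held. Cluster 1 had 8.86 regions per Mb, compared with 18.2 in cluster 2, 17.1 in cluster 3, 41.9 in cluster 4 and 30.7 over the rest of the chromosome. Of 151 zinc finger genes in the windows, 98 (64.9%) had a region within 1 kb of an annotated start. In cluster 1 this held for 10 of 35 genes (28.6%), and in the other clusters for 26 of 29, 19 of 36 and 43 of 51. ZNF91, ZNF43 and ZNF208 of cluster 1, ZNF382 and ZFP82 of cluster 2, ZNF677 and ZNF415 of cluster 3, and ZNF154, ZSCAN4 and ZNF132 of cluster 4 had no region at a start, so nothing is said about them. By position, 105 of the 166 regions lay at zinc finger gene starts, 21 at starts of other genes, 16 inside genes away from a start and 24 between genes. In cluster 1 the order was different, with 10 regions at zinc finger starts and 24 away from the starts used here. Reads from near-identical copies may have been lost or shared between them, and any mapping filter was not given in the sources used here.

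Clone M2 altered these clusters most. In M2 cluster 1 lost most of its signal, and a block of zinc finger starts in cluster 4 lost nearly all signal. Most other zinc finger starts rose with the rest of the chromosome. Summed over cluster 1, the signal was 427 and 472 CPM in the Parental libraries and 119 and 129 CPM in those of M2, which is 0.276 of the Parental mean. Clusters 2, 3 and 4 rose to 1.38, 1.89 and 1.46 times their Parental sums, and the rest of the chromosome to 1.46 times. The share of chromosome 19 counts that fell in cluster 1 went from 1.70% ± 0.103 (SD, n = 2) in Parental to 0.324% ± 0.000444 (SD, n = 2) in M2. The same cluster summed to 310 and 370 CPM in E and to a mean of 321 CPM ± 1.72 (SD, n = 2) in M1, also below both Parental libraries. EM1 and EM2 lay between 485 and 535 CPM, above both Parental libraries, and EM3 at 467 and 530 CPM overlapped them.

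**Figure D1:**
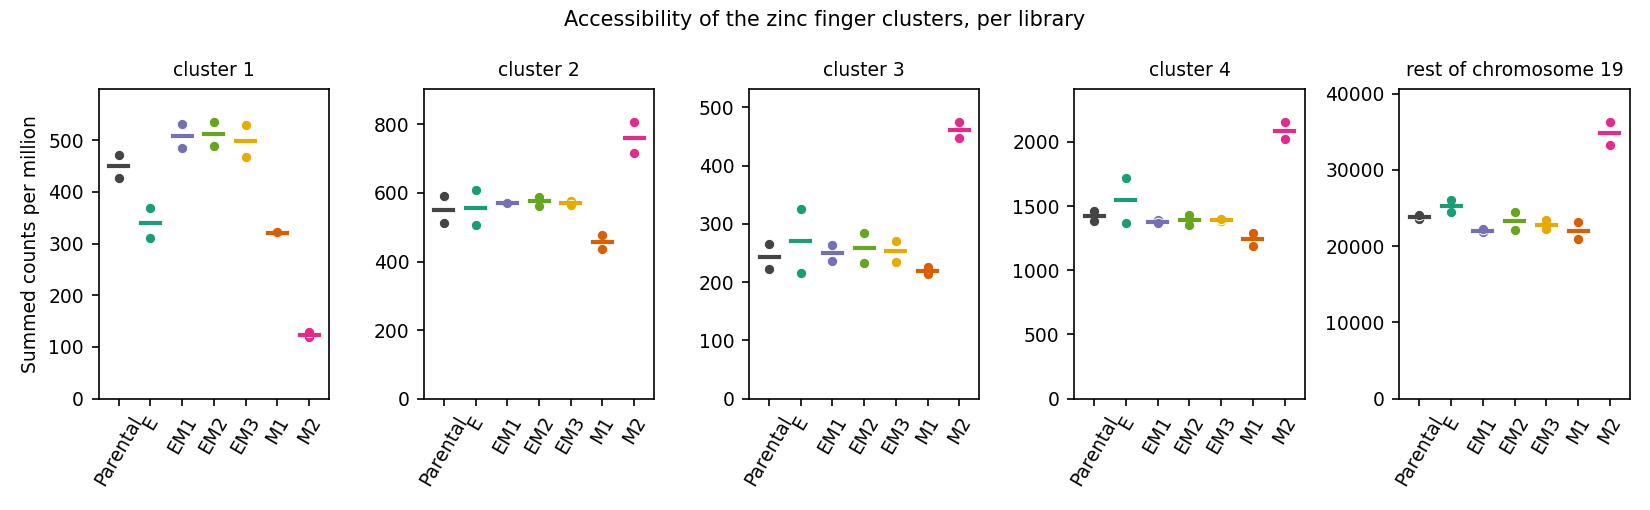
Summed CPM of each cluster and of the rest of chromosome 19 (y axis, from 0) in the 2 libraries of each group (points) with the group mean (line). In cluster 1 both M2 libraries, at 119 and 129 CPM, lie below every other library, while in the other panels M2 is highest.

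Calls were made by edgeR's quasi-likelihood F test over 65771 regions with Benjamini-Hochberg adjustment at an adjusted p under 0.05. Over the 7 groups 131 of the 166 regions (78.9%) were called, close to the 78.6% of all regions and above the 72.4% of the rest of the chromosome. Against Parental, M2 had 80 regions higher and 54 lower. In the same comparison 32.1% of all regions were higher and 34.9% lower (67.0% called), and on the rest of the chromosome 51.8% were higher and 18.4% lower (70.2% called, 776 and 276 of 1499). M1 had 1 region higher and 26 lower, where 19% of all regions were higher and 23.4% lower (42.4% called) and 10.3% and 16.3% of the rest of the chromosome were (26.7% called). E had 1 higher and 16 lower, against 5.27% and 6.31% of all regions (11.6% called) and 2.94% and 1.6% of the rest of the chromosome (4.54% called). EM2 had 3 higher and 8 lower, against 3.02% and 6.17% of all regions (9.19% called) and 1.0% and 3.34% of the rest of the chromosome (4.34% called). EM1 and EM3 had none, with 0.628% and 3.11% of all regions and 0.267% and 1.0% of the rest of the chromosome called. At an unadjusted p under 0.05 they had 5 and 13 regions in the clusters. The same held for 6805 and 10954 of all 65771 regions and for 91 and 120 of 1499 on the rest of the chromosome. DESeq2 called 0 and 1 in the clusters. The Parental libraries are shared by these comparisons. In M1, E and EM2 the calls in the clusters were mostly falls.

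Each M2 count rests on a scaling in which the median of all regions moved by less than 0.1. On that scaling the rest of chromosome 19 itself rose by a median of 0.60 on the log2 scale. Scaled instead so that the rest of the chromosome stayed level, which lowered the median of all regions by 0.55, M2 had 20 regions higher and 66 lower in the clusters. This scaling lowers each M2 value by about the same amount, so fewer rises passed, 20 in place of 80, and more falls, 66 in place of 54. Regions outside the clusters are lowered alike, so these counts alone do not set the clusters apart. Relative to the rest of the chromosome, the median change of the 166 regions was -0.05 in M2, -0.15 in M1, -0.10 in E, 0.04 in EM2, 0.11 in EM1 and 0.08 in EM3. By cluster the M2 value was -6.40 in cluster 1 (a median of fitted values that include 4 regions of 0 counts, and -4.98 and -4.95 from the log2 CPM of the single libraries), 0.12 in cluster 2, 0.34 in cluster 3 and 0.06 in cluster 4.

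**Figure D2:**
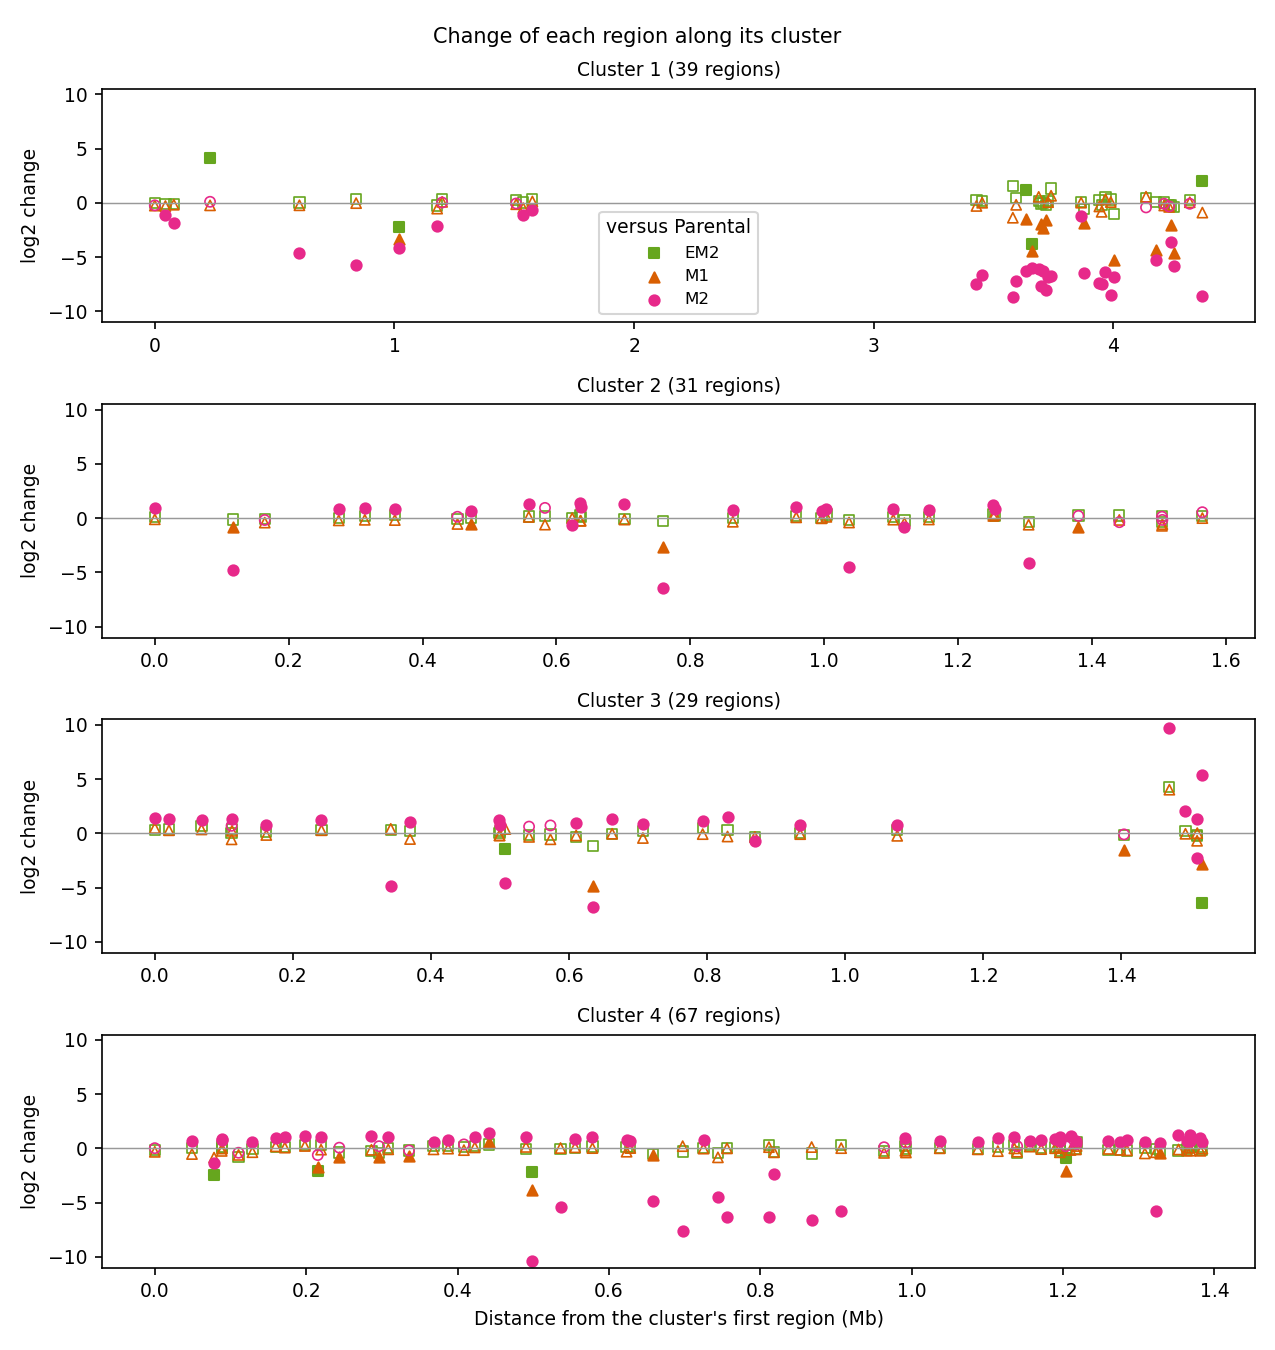
Fitted log2 change against Parental (y axis) of each region by its distance in Mb from the first region of its cluster (x axis), for EM2 (squares), M1 (triangles) and M2 (circles). Filled symbols passed the test. In M2 the low values of cluster 1 run together, and those of cluster 4 sit mostly in its middle, with 1 more inside ZBTB45 near the distal end. Regions with 0 counts in a group are drawn at fitted values that are not bounds.

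In cluster 1, 31 of 39 regions (79.5%) fell in M2 and none rose, compared with 18.4% and 51.8% on the rest of the chromosome. The median log2 change was -5.80, or -4.84 with the 4 regions of 0 M2 counts set at the bound that 3 counts over the M2 libraries allow. The median over the rest of the chromosome was 0.60. The mean level was under 0.3 CPM in 23 regions in M2 and in none in Parental. These regions ran together along the chromosome. A run of 12 consecutive regions between 23249991 and 23562032 (312 kb) held M2 means of at most 0.172 CPM, where the Parental means ranged from 2.77 to 17.9 CPM. It opens at the start of ZNF724 and passes LINC01224 and the interval between ZNF91 and ZNF675. A second run of 6 regions between 23699077 and 23823066 (124 kb) covers the upstream side of ZNF675 and the RPSA2 locus, and another of 3 regions lies around ZNF626, between 20424848 and 20840695. Under the scaling to the rest of the chromosome 35 of the 39 were lower, and under the other alternatives, single libraries left out included, 29 to 31 were.

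The start of ZNF724 (chr19:23249991-23250599), a KRAB zinc finger gene, was measured at 15.6 and 20.1 CPM in Parental and at 0 and 0.153 CPM in M2. No other group overlapped M2 there, since the 10 libraries of E, EM1, EM2, EM3 and M1 lay between 13.2 and 24.8 CPM. The region held 409 counts in Parental and 2 in M2, a ratio of 196 after scaling (95% exact interval 53.8 to 1621, counting error only), with an adjusted p of 1.11e-07 by edgeR's quasi-likelihood test. RPSA2, a copy of the ribosomal protein gene RPSA, had 22.5 and 25.3 CPM at its start in Parental and 0.115 and 0.153 CPM in M2. Its ratio was 174 (95% exact interval 59.3 to 847). The start of the long noncoding RNA gene LINC01224 went from 13.3 and 17.4 CPM to 0.115 and 0.0764 CPM. At these 3 starts the M1 libraries stayed between 12.8 and 19.7 CPM.

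The loss of signal in M2 did not cover the whole cluster. The region of highest mean signal (chr19:24033276-24033909) overlaps an annotated end of ZNF254. It was counted as away from starts, since no start listed for the gene lies within 1 kb. Its level was 28.9 and 31.9 CPM in Parental and 29.1 and 28.7 CPM in M2. Further on inside the same gene (chr19:24073824-24074253), the level was 14.1 and 13.1 CPM in Parental, 0.532 and 0.529 CPM in M1, and 0.458 and 0.0764 CPM in M2. The starts of ZNF430 (8.16 and 10.2 CPM in Parental, 9.39 and 9.47 in M2) and of ZNF708 (8.25 and 8.65 CPM, then 9.16 and 7.26) also kept overlapping values. These were named after their values were seen. The start of ZNF675, between the long runs, fell from 4.90 and 6.45 CPM to 1.83 and 2.98 CPM (log2 change -1.21, SE 0.33, adjusted p 0.00578 by edgeR's quasi-likelihood test). ZNF93, which restrains L1 elements, went from 11.1 and 10.7 CPM to 1.37 and 4.51 CPM (log2 change -1.83, SE 0.40, adjusted p 0.00115 by the same test). In all 7 of the 10 zinc finger starts of cluster 1 fell, of which ZNF724 and ZNF626 fell to under 0.25 of the Parental level. The latter held for 4 of its 5 other gene starts and for 20 of its 24 regions away from starts.

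In cluster 4, 43 of 67 regions rose in M2 (64.2%) and 12 fell (17.9%). On the rest of the chromosome 51.8% rose and 18.4% fell. The median log2 change of the cluster was 0.66. All 8 zinc finger starts that fell to under 0.25 of the Parental level lie in the middle of the cluster, and 6 consecutive regions from ZNF418 to ZSCAN18 (57935280 to 58098641, 163 kb) were among the low ones. ZNF671 (chr19:57727343-57727878), the promoter printed first above, had 10.3 and 9.25 CPM in Parental and 0.115 and 0.306 CPM in M2 (log2 change -5.37, SE 0.45, adjusted p 4.37e-07 by edgeR's quasi-likelihood test). In the other clones it lay between 6.62 and 12.5 CPM. ZNF587 fell from 23.8 and 20.4 CPM to 0.573 and 0.917 CPM (log2 change -4.82, SE 0.28, adjusted p 2.55e-08). ZNF256, named with the next 5 genes after its values were seen, went from 26.8 and 19.3 CPM to 0.229 and 0.306 CPM (log2 change -6.34, SE 0.34, adjusted p 1.56e-08). The start of ZSCAN18, which carries a SCAN domain in place of KRAB, went from 14.3 and 12.7 CPM to 0.344 and 0.153 CPM. ZNF135 had 328 counts in Parental and 3 in M2, a ratio of 105 (95% exact interval 35.5 to 510). ZNF814 had 241 and 1 (ratio 231, 95% exact interval 41.0 to 9142), and ZNF606 had 181 and 2 (ratio 86.6, 95% exact interval 23.6 to 720). ZNF418 fell from 5.53 and 5.09 CPM to 0.229 CPM in both M2 libraries. Outside this block a region inside ZBTB45 (chr19:58513795-58514352) fell from 19.6 and 24.7 CPM to 0.115 and 0.611 CPM (log2 change -5.73, SE 0.40).

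Starts between these were higher in M2. ZNF776, whose printed promoter follows that of ZNF671 in the list above, had 14.2 and 12.6 CPM in Parental and 22.4 and 26.4 CPM in M2 (log2 change 0.86, SE 0.21). ZNF586 went from 15.1 and 14.3 to 30.7 and 29.6 CPM, and ZNF552 from 21.7 and 21.9 to 36.2 and 36.5 CPM. ZNF417, a close relative of ZNF587 that lies on the other side of ZNF814, went from 13.3 and 13.2 to 22.0 and 22.6 CPM (log2 change 0.75, SE 0.22, adjusted p 0.00874 by edgeR's quasi-likelihood test), the opposite direction from ZNF587. Without Parental replicate 2, ZNF417 no longer passed the test (log2 change 0.72). Scaled to the rest of the chromosome, the changes of ZNF776, ZNF586, ZNF552 and ZNF417 were 0.31, 0.49, 0.19 and 0.20, and none passed.

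**Figure D3:**
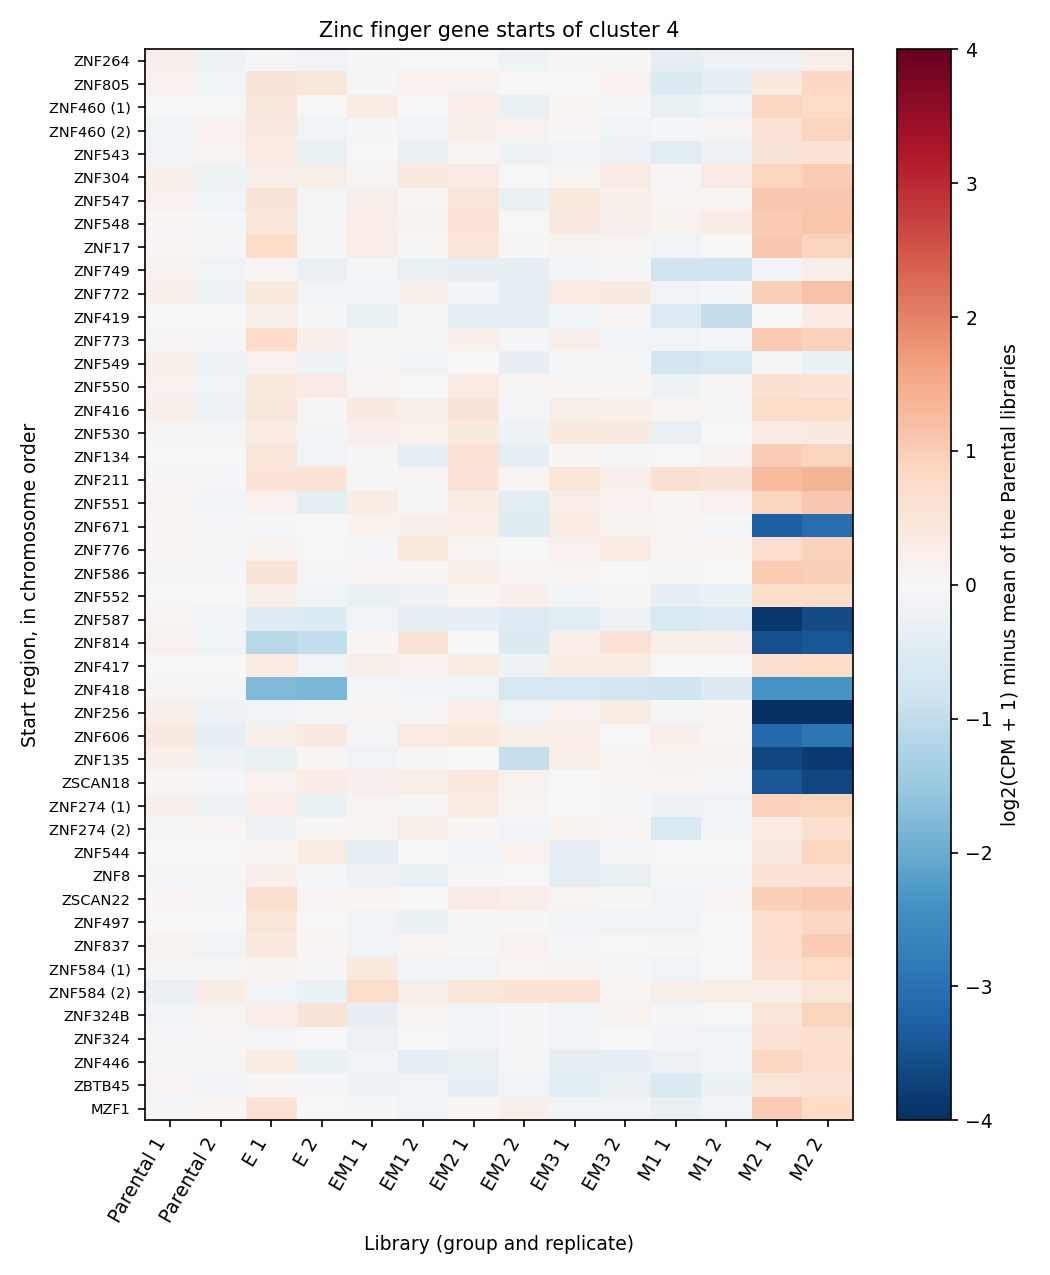
Zinc finger start regions of cluster 4 in chromosome order (rows) in the 14 libraries (columns), coloured by log2(CPM + 1) minus the mean of the 2 Parental libraries, on a scale that stops at -4 and 4. The 8 blue rows of the M2 columns run from ZNF671 to ZSCAN18 with rows near or above 0 between them, and ZNF814 and ZNF418 are also pale blue in both E libraries.

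The gene of the KRAB corepressor itself was among the rises of cluster 4. The region at TRIM28 (chr19:58543718-58544501, which overlaps an annotated end of the gene), had 33.1 and 35.5 CPM in Parental and 79.6 and 78.5 CPM in M2 (log2 change 1.20, SE 0.19, adjusted p 9.32e-05 by edgeR's quasi-likelihood test). Its E libraries stood at 52.9 and 33.7 CPM, and the other 8 lay between 27.8 and 35.3 CPM. UBE2M, the neighbouring gene for an enzyme of the NEDD8 pathway, rose by 1.26 (SE 0.19, adjusted p 6.83e-05), and ERVK3-1, a gene derived from an endogenous retrovirus, by 0.94 (SE 0.15, adjusted p 0.000125). MZF1, a SCAN zinc finger gene and the most accessible region of the cluster, went from 58.7 and 65.9 CPM to 127 and 109 CPM (log2 change 0.92). ZNF304 rose by 1.00 (SE 0.24, adjusted p 0.0022). Scaled to the rest of the chromosome, TRIM28 and UBE2M still passed, while ERVK3-1 (0.39), MZF1 (0.38) and ZNF304 (0.45) did not.

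In cluster 2, 17 of 31 regions rose in M2 (54.8%) and 6 fell (19.4%). On the rest of the chromosome 51.8% rose and 18.4% fell. The median of the cluster was 0.72. Its rises included the starts with the strongest signal. The region at the shared start of ZNF146 and ZNF565, the most accessible of the cluster, had 43.1 and 40.8 CPM in Parental and 78.3 and 81.3 CPM in M2 (log2 change 0.93, SE 0.14, adjusted p 6.93e-05 by edgeR's quasi-likelihood test). ZNF566 rose by 0.86 and ZNF260 by 0.96. ZNF568, whose mouse counterpart represses Igf2 transcription in the embryo, shares its start with ZNF829 and went from 17.5 and 12.9 CPM to 35.5 and 39.96 CPM (log2 change 1.31, SE 0.29). The annotated starts of ZNF875 (HKR1) moved apart: the region at 37317550 rose by 0.80 (SE 0.18) and that at 37334277 fell by 0.77 (SE 0.18), and the first did not pass when scaled to the rest of the chromosome (0.25), nor did ZNF566 (0.31). Large falls were not at zinc finger starts. The start of the noncoding gene LINC00665 went from 17.2 and 16.4 CPM to 0.802 and 0.458 CPM (log2 change -4.78, SE 0.30). LINC01535 changed by -4.53, a region inside ZNF793 by -4.16, and a region inside ZNF568 (chr19:36973066-36973627) went from 285 counts to 3 (ratio 90.9, 95% exact interval 30.8 to 443). Those 4 were named after their values were seen.

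In cluster 3, 20 of 29 regions rose in M2 (69.0%) and 5 fell (17.2%). On the rest of the chromosome 51.8% rose and 18.4% fell. The median of the cluster was 0.94. ZNF331, an imprinted zinc finger gene at the distal end, showed the largest rise at a start, from 5.80 and 4.67 CPM in Parental to 22.4 CPM in both M2 libraries (chr19:53520685-53521152, log2 change 2.097, SE 0.28, adjusted p 2.2e-05 by edgeR's quasi-likelihood test). In the other 5 clones that region lay between 3.93 and 9.34 CPM. Its neighbours moved in different directions. A region beside another annotated start of the gene, at 53537528, fell by 2.32 and the next, at 53537783, rose by 1.27. A region inside the gene (chr19:53545192-53545721) had 0.907 and 0.933 CPM in Parental and 34.7 and 42.2 CPM in M2 (log2 change 5.37, SE 0.64, adjusted p 1.49e-05). Upstream, beside ZNF813 (chr19:53497399-53497714), Parental had 0 counts and M2 had 196, at least 68.3-fold higher with 3 counts over the Parental libraries as the floor.

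Among the other genes of cluster 3, ZNF614 rose by 1.37 (SE 0.22) and ZNF432 by 1.27 (SE 0.22). PPP2R1A, the scaffold subunit of the phosphatase PP2A and the most accessible region of the cluster, went from 70.9 and 56.5 CPM to 114 and 103 CPM (log2 change 0.77, SE 0.21). It did not pass without Parental replicate 2 (0.59) or when scaled to the rest of the chromosome (0.23). The ZNF808 start region at 52527436 rose by 0.79 with an adjusted p of 0.0485 by edgeR's quasi-likelihood test. That call was lost without Parental replicate 2 (0.46) and without either library of EM1, EM2, M1 or M2. It was also lost when scaled to the rest of the chromosome (0.25) or by library totals (0.69). Another start region of the gene, at 52527152, was also called higher in M2, by 1.18. ZNF320 fell by 0.67 (SE 0.23) and did not pass without Parental replicate 1 (-0.60) or without M2 replicate 1 (-0.65) or 2 (-0.71). ZNF880, named after its values were seen, was the start with the largest fall, from 5.71 and 5.09 CPM to 0 and 0.306 CPM. Inside ZNF83 (chr19:52662685-52662989) Parental had 139 counts and M2 had 1 (ratio 133, 95% exact interval 23.5 to 5288), while both start regions of ZNF83 were higher in M2, by 0.94 and 1.31.

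Pooled over the clusters, the direction of change in M2 differed with position. Of the 105 zinc finger start regions 65 rose and 20 fell, compared with 63 and 7 of 94 zinc finger starts on the rest of the chromosome (67.0% and 7.45%) and 118 and 52 of 325 on other chromosomes (36.3% and 16%). Of the 40 member regions away from the starts used here, 5 rose and 28 fell, compared with 343 and 222 of 842 such regions on the rest of the chromosome (40.7% and 26.4%). In M1, 1 zinc finger start of the clusters rose and 8 fell (4 and 15 of 94 elsewhere on the chromosome, 4.26% and 16%), and of the regions away from starts 0 rose and 15 of 40 fell (134 and 177 of 842, 15.9% and 21.0%). Of the 40 regions 24 lie in cluster 1, so that position and cluster cannot be told apart in the pooled counts. Within cluster 1 no region rose at any position, while 7 of 10 zinc finger starts, 4 of 5 other starts and 20 of 24 regions away from starts fell. In cluster 4, 31 of 46 zinc finger starts rose and 8 fell, and 3 of the 10 regions away from starts rose and 4 fell.

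**Figure D4:**
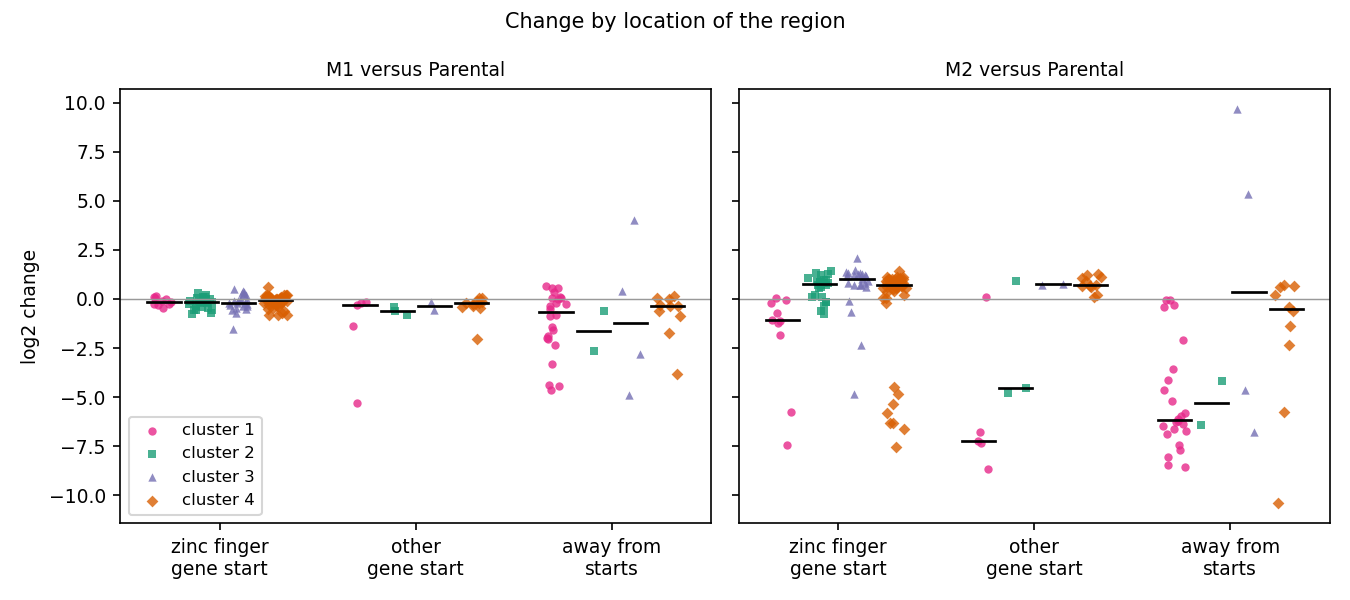
Fitted log2 change of the member regions in M1 (left) and M2 (right) against Parental, at zinc finger starts, at other starts and away from starts, with symbols by cluster and lines at the median of each cluster. In M2 most zinc finger starts lie just above 0, 8 of cluster 4 lie far below, and most of cluster 1 away from starts lies below -4.

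Falls in M1 were fewer and smaller than in M2. They numbered 11 in cluster 1 (28.2%), 4 in cluster 2 (12.9%), 3 in cluster 3 (10.3%) and 8 in cluster 4 (11.9%). On the rest of the chromosome 16.3% of regions fell in M1, and 23.4% of all regions did. Relative to the rest of the chromosome the median of cluster 1 was -0.24 in M1. A region upstream of ZNF254 (chr19:24000256-24001068) fell from 16.8 and 21.7 CPM in Parental to 1.49 and 0.529 CPM in M1 (log2 change -4.36, SE 0.44, adjusted p 5.29e-06 by edgeR's quasi-likelihood test), and M2 was also low there at 0.687 and 0.382 CPM. The region upstream of ZNF675 (chr19:23699077-23699787) stepped down from 24.5 and 25.1 CPM in Parental to 5.95 and 7.47 CPM in M1 and 0.115 and 0.382 CPM in M2. Its log2 changes were -1.87 (SE 0.25) and -6.45 (SE 0.37), and M2 was lower than M1 in the direct comparison (-4.58, SE 0.40, adjusted p 1.42e-06).

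Some starts were lower in M1 without being lower in M2. ZNF761 of cluster 3 had 9.34 and 8.57 CPM in Parental, 3.19 and 3.11 CPM in M1, and 8.70 and 8.02 CPM in M2 (M1 against Parental -1.51, SE 0.26, adjusted p 0.000416, M2 against M1 1.41, SE 0.26, adjusted p 0.000575, edgeR's quasi-likelihood test). The shared start of ZNF540 and ZNF571 in cluster 2 had 30.0 and 23.9, then 14.1 and 17.0, then 34.7 and 27.7 CPM (M1 against Parental -0.79, SE 0.18). ZNF749 of cluster 4 had 38.8 and 32.1, then 20.1 and 19.8, then 33.0 and 41.3 CPM (-0.83, SE 0.18). RNF225, a RING finger gene of cluster 4 named after its values were seen, had 29.2 and 22.6, then 4.89 and 7.47, then 27.8 and 32.1 CPM (-2.04, SE 0.27). In each of these 4 the M1 libraries lay below every Parental and M2 library. Scaled to the rest of the chromosome, M2 against M1 no longer passed for ZNF749 (0.24) or ZNF540 (0.35). ZNF587 fell in M1 by 0.59, a call lost without either Parental library, either M1 library or EM3 replicate 2 and under the scaling to the rest of the chromosome (-0.48). The only rise in M1 was ZNF211 (0.62, SE 0.24, adjusted p 0.0487), which DESeq2 did not call. That call was also lost without either library of Parental, EM1, EM3 or M1, without E replicate 1 or M2 replicate 1, and with only the 4 libraries compared.

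In clone E 7 regions fell in cluster 1 (17.9%), 4 in cluster 2 (12.9%), 2 in cluster 3 (6.90%) and 3 in cluster 4 (4.48%). On the rest of the chromosome 1.6% of regions fell in E, and 6.31% of all regions did. Between the fits that kept a single E library the number of rises differed far more than the number of falls. More rises passed when replicate 1 was the library kept. The same held over all regions and on the rest of the chromosome, so it is not particular to the clusters. Without Parental replicate 1 there were 11 calls and without Parental replicate 2 there were 9, all falls. Upstream of ZNF430 (chr19:20999679-21000232) E had 6.19 and 4.17 CPM against 24.2 and 28.8 CPM in Parental (log2 change -2.36, SE 0.26, adjusted p 0.000469 by edgeR's quasi-likelihood test, -2.67 without E replicate 1), while at the ZNF430 start it had 7.76 and 7.58 CPM against 8.16 and 10.2 CPM. ZNF418 of cluster 4 had 0.849 and 0.769 CPM in E against 5.53 and 5.09 CPM (-2.70, SE 0.42, and -2.77 without E replicate 1). ZNF814 changed by -1.20, which did not pass without either E library or either Parental library (-1.13 without E replicate 1). ZNF93 changed by -1.32 with an adjusted p of 0.0453, a call that leaving out any of 12 single libraries removed, each library of Parental, E, EM1, EM2, EM3 and M1. LINC01224 changed by -0.95 and did not pass without E replicate 1 (-0.70), Parental replicate 1 (-1.13) or Parental replicate 2 (-0.72).

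With all libraries the single rise in E was the region inside ZNF331, while without E replicate 1 another region, in cluster 1, passed in its place. The region inside ZNF331 stood at 9.83 CPM in replicate 1 and 1.76 CPM in replicate 2, against 0.907 and 0.933 CPM in Parental. Its log2 change was 2.63 (SE 0.64, adjusted p 0.0229 by edgeR's quasi-likelihood test) and 0.93 without E replicate 1, which did not pass, nor did it without Parental replicate 1 (2.61) or 2 (2.69). M2 had 34.7 and 42.2 CPM there. Beside ZNF813, where M2 had 7.44 and 10.01 CPM, E replicate 1 had 1.09 CPM and E replicate 2 had 0. E replicate 1 was thus above E replicate 2 at both sites that gained signal in M2, and the part of that library in the result was not tested further.

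In the main fit cluster 1 had 3 called rises in EM2 and none in the other clones, and not all 3 are described here. At LOC105372309 (chr19:20051974-20052464, within 1 kb of the start of this uncharacterised gene) the EM2 libraries had 15.6 and 14.8 CPM, whereas the 12 others lay between 0.202 and 2.85 CPM. The log2 change was 4.17 (SE 0.68, adjusted p 0.0023 by edgeR's quasi-likelihood test), and M1 was lower than EM2 by -4.39 (SE 0.70, adjusted p 0.00034). A region between genes at chr19:24192692-24193388 rose from 3.36 and 4.50 CPM to 13.9 and 17.6 CPM (2.00, SE 0.42). That call was lost without Parental replicate 1 (1.81), Parental replicate 2 (2.19) or EM2 replicate 2 (1.82), and the EM3 libraries stood at 10.7 and 12.5 CPM. Between ZNF91 and ZNF675 (chr19:23481092-23481364), EM2 fell from 5.99 and 6.87 CPM to 0.540 and 0.390 CPM (-3.76, SE 0.52), close to M1 at 0.319 and 0.264 CPM and M2 at 0.229 and 0 CPM. The calls in EM2 numbered 4 without Parental replicate 1, 5 without Parental replicate 2, 7 without EM2 replicate 1 and 6 without EM2 replicate 2, compared with 11 in all. These regions were named after their values were seen. No call was made in EM1 or EM3 in the main fit, and with a replicate block 1 and 4 were.

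Directly compared, M2 had 91 regions higher and 44 lower than M1 (all regions 27.2% higher, 29.1% lower and 56.3% called, rest of the chromosome 51.8%, 13.4% and 65.2%), 25 of the falls in cluster 1. Scaled to the rest of the chromosome, which shifted the median of all regions by -0.66, the counts were 18 and 54. M1 had 2 regions higher and 23 lower than EM2 (all regions 14.1% higher, 18.6% lower and 32.7% called, rest of the chromosome 8.07%, 12.1% and 20.2%), 13 of the falls in cluster 1, and 16 calls without M1 replicate 2. Both comparisons share the M1 libraries.

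Of the 166 regions 7 fell in 3 or more clones, where 6.38% of all regions and 3.2% of the rest of the chromosome did. Of the 7, 6 lay inside a gene or between genes, LINC00665 being the exception. Among such regions away from starts the share was 7.45% over the whole table and 4.87% on the rest of the chromosome. They were named after their values were seen. The region inside ZNF551 in cluster 4 (chr19:57689749-57690107) fell in 4 clones. It had 16.4 and 12.5 CPM in Parental, 2.67 and 1.43 in E, 3.39 and 3.20 in EM2, 1.28 and 0.793 in M1 and 0 in both M2 libraries. EM1 (18.7 and 16.5 CPM) and EM3 (14.6 and 16.1 CPM) overlapped Parental. The log2 changes were -2.82 (SE 0.34) in E, -2.13 (SE 0.31) in EM2 and -3.84 (SE 0.36) in M1, and M2 was at least 105-fold lower with 3 counts over its libraries as the floor. E without replicate 1 gave -3.33. The start of ZNF551 rose in M2 by 1.05 (SE 0.28), a call lost without Parental replicate 2 (0.91) and under the scaling to the rest of the chromosome (0.49).

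The region inside ZNF83 fell in E (0.849 and 1.21 CPM), M1 (0 and 0.330 CPM) and M2 from 6.08 and 6.11 CPM in Parental, and the E fall did not pass without Parental replicate 2 (-2.52). That inside ZNF808 fell in E (0.728 and 1.10 CPM), EM2 (2.47 and 1.79 CPM) and M2 (0.344 and 0.153 CPM) from 5.53 and 6.36 CPM, but not in M1 (8.51 and 7.14 CPM), which was higher than EM2 (1.87, SE 0.33, adjusted p 0.000713 by edgeR's quasi-likelihood test). The EM2 fall there did not pass without Parental replicate 1 (-1.57), Parental replicate 2 (-1.41) or EM2 replicate 2 (-1.27). The region inside ZNF568 fell in E by 1.80, in M1 by 2.66 and in M2, and the E fall did not pass without E replicate 1 (-1.51) or Parental replicate 1 (-1.49). LINC00665 fell in E by 1.65 (-1.56 without E replicate 1) and in M1 by 0.80, the latter lost without Parental replicate 1 (-0.76) or M1 replicate 1 (-0.67). The other 2, near ZNF66 and ZNF91, fell in EM2, M1 and M2. The EM2 fall near ZNF66 (-2.20) did not pass without either Parental library, either EM1 library or EM2 replicate 1 (-1.43), or with only the 4 libraries compared.

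A list of 28 genes of the pathway that KRAB proteins use for silencing, TRIM28 among them, was read alongside, and 22 had a start region. In M2 12 of the 22 were higher and 4 lower, in M1 1 and 1, in E 0 and 1, in EM2 0 and 1, and in EM1 and EM3 none. Of starts on other chromosomes outside the zinc finger genes, 40.8% were higher and 21.6% lower in M2, 10.9% and 14.8% in M1, 3.08% and 3.47% in E, and 2.27% and 3.18% in EM2. The M2 median of the list was 0.48, compared with 0.31 over those starts. CBX3, which encodes HP1 gamma, rose in M2 by 1.44, and SETDB1 by 1.11. TASOR and MORC2, of and around the HUSH complex that silences transposable elements, rose by 0.78 and 0.96, while their partners MPHOSPH8 and PPHLN1 fell by 0.52 and 0.89. The chromatin remodeller genes CHD3 and CHD4 of the NuRD complex, which TRIM28 also recruits, fell in M2 by 1.79 and 2.46. CHD4 was also lower in M1, by 3.17, and in EM2, by 1.45. ATF7IP, the partner of SETDB1, rose in M1 by 0.62, and SUV39H2, another histone methyltransferase, fell in E by 0.96. The start regions of this pathway thus moved in both directions in M2.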

How the data were processed

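ATAC-seq was made from nuclei tagmented by the Buenrostro protocol, per the labels' protocols. The authors deposited raw counts per library in 65774 regions on hg38. The submitters' processing notes list Bowtie2 2.2.6, MACS2 2.1.1, featureCounts, deepTools, cutadapt 1.9.1, Picard and bcl2fastq 2.20.0.422 without roles. Region merging and mapping filters were not given in the sources used here. Its design text calls the data RNA sequencing, while labels and values are those of ATAC-seq.

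Counts were scaled by TMM and fitted with edgeR 4.0.16 (R 4.3.3), with 7 group means over 14 libraries, no block, and the quasi-likelihood F test. A minimum count of 10 left 65771 regions, and p-values were adjusted by Benjamini-Hochberg over all of them. The common biological coefficient of variation was 0.208. CPM are TMM-scaled. The SE is the log2 change divided by the square root of F. DESeq2 1.42.0 was an alternative. The fit was tested on simulated data. Genes and promoters came from RefSeq tables of GRCh38.p14. A start region lies within 1 kb of an annotated start, or of a gene end where no start is given. Depth (8138944 to 16786823 counts) limits precision at low regions. Intervals cover counting error only, since reads lack molecular identifiers.

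The windows, members and lists were chosen with earlier results of these data known. Genes were named by a rule: per cluster, among regions at or above its median mean log2 CPM, the 3 smallest p over the groups and, per clone, the largest called rise and fall against Parental without overlap between libraries, then the region of highest mean and the starts of listed genes with a known role. Others are said to be chosen after their values were seen. Replicate numbers were not taken as pairs in the main fit, since nothing in the labels ties them. Same-numbered libraries correlated above 0.1 in 19 of 21 pairs of groups, short of every pair. A shared effect of replicate number therefore remains possible. Alternatives were other scalings, DESeq2, no filter, a replicate block, single libraries left out, only the 4 libraries compared, other start distances and references. Peak lists and the interval file of the regions were not used here.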

Additional observations from a re-analysis of the deposited data

How the results depend on the processing

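Of 230 called changes at 90 regions named or tabulated, 161 passed under each alternative run for them; of 4828 alternative values 4571 passed, 257 did not, and none changed direction. Scaling to the rest of chromosome 19 shifted the median of all regions by -0.55 in M2 against Parental, -0.66 in M2 against M1, 0.11 in EM1 and 0.11 in M1, and library totals by -0.11 and -0.15 in the 2 M2 comparisons. Under the former the calls numbered 79 over the 7 groups, 86 in M2 and 72 in M2 against M1. With an absolute log2 change of at least 1 the M2 counts were 83 and 86.

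With only the 4 libraries compared EM1 had 1 call and EM3 had 7, and by DESeq2 EM3 had 1. Restricted to the 140 members with a zinc finger gene nearest within 50 kb, EM2 had 7 calls and M1 against EM2 had 16. With gene starts taken within 10 kb, zinc finger starts called numbered 8 in E (4 at 1 kb), 4 in EM2 (0) and 9 in M1 against EM2 (4). The median relative change moved to 0.0373 in E, 0.0298 in EM1, -0.20 in M1 and 0.58 in M2 with other chromosomes as the reference, to -0.0819 in M1 and 0.12 in M2 over zinc finger starts, and to -0.19 in M2 from summed CPM. The cause was not tested.

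Leaving out single libraries gave 97 to 138 calls over the groups, 9 to 25 in E, 0 to 0 in EM1, 4 to 12 in EM2, 0 to 2 in EM3, 19 to 28 in M1, 107 to 136 in M2, 101 to 137 in M2 against M1 and 16 to 32 in M1 against EM2. EM3 had 2 calls without either E library and 1 without either M1 library. The relative medians ranged from -0.19 to -0.02 in E, 0.0752 to 0.21 in EM1, -0.09 to 0.19 in EM2, 0.02 to 0.13 in EM3, -0.19 to -0.10 in M1 and -0.16 to -0.0540 in M2.

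Libraries share only a replicate number: deviations of same-numbered libraries correlated at 0.023 to 0.590 over 21 pairs of groups, above 0.1 in 19. With a replicate block the calls were 22 in E, 1 in EM1, 14 in EM2, 4 in EM3, 32 in M1, 140 in M2, 140 in M2 against M1 and 30 in M1 against EM2, and 1 of the 230 named changes did not pass.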

Other observations

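The region inside ZNF331 was also called lower in EM2 and M1, where it held 0 and 3 counts against 21 in Parental. EM2 was at least 7.92-fold lower with 3 counts over its libraries as the floor, and the M1 ratio was 7.53 (95% exact interval 2.25 to 39.4). The EM2 call was lost without either Parental or either EM2 library, and the M1 call (adjusted p 0.0491 by edgeR's quasi-likelihood test) without any of 10 single libraries. At so few counts these are values and no more.

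The region 30.4 kb from ZNF66 (chr19:20840402-20840695) was low in M1 (0.213 and 0.264 CPM) and M2 (0.115 and 0.153 CPM) and had 7.66 and 10.1 CPM in EM1 and 5.73 and 9.37 CPM in EM3, against 2.09 and 2.97 CPM in Parental. EM1 and EM3 did not pass the test against Parental there, although their libraries lay above both Parental libraries.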
